A study of Rattus norvegicus with 5 samples.

Results

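Sulfotransferases, epoxide hydrolases, aldo-keto reductases, a quinone reductase and the electron donor of the microsomal P450 enzymes were examined in the rat small intestine as a set of 10 genes: *Sult1a1*, *Sult1b1*, *Sult2b1*, *Ephx1*, *Ephx2*, *Akr1c14*, *Akr1b8*, *Akr7a3*, *Nqo1* and *Por*. Every gene probe (a probe set of the array) whose annotated symbol was 1 of these names was taken, which gave 13 of the 15866 gene probes on the array. *Sult2b1*, *Akr1c14* and *Por* have 2 gene probes each. The 10 genes stand among 10411 genes that carry a name of their own on the array. Under calorie restriction (CR) the intensity of *Sult1a1* was between 2.22-fold and 3.21-fold that of the control array at the 4 levels. *Ephx1* and *Akr1c14* were at 1.22-fold to 1.92-fold the control and *Sult1b1* and *Ephx2* at 1.07-fold to 1.57-fold. Of the 13 gene probes, 6 were thus higher at every level, against 19.0% of all gene probes tested. These 6 include both of *Akr1c14*, and by the brightest gene probe of each gene 5 of 10 were higher. Those of *Akr7a3* and *Nqo1*, 2 of 13, were lower at every level, against 20.6%. The set was chosen with earlier results of these data known, so such counts are a description. No gene of the set passed the adjusted test.

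These enzymes turn fat-soluble compounds into products that a cell can clear. Sulfotransferases join a sulfate group to a phenol, a steroid or another acceptor, epoxide hydrolases open reactive epoxides with water, and aldo-keto and quinone reductases reduce carbonyl groups and quinones that would otherwise react with proteins. The lining of the small intestine carries out much of this chemistry on what is eaten, before the blood reaches the liver.

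All pools came from male Wistar rats in single housing, which had been bought at an age of 5 weeks and were 6 weeks old when the restriction began. Every group ate the AIN-93G diet, and CR lasted 1 month. The control group received all of the daily intake recorded beforehand with free feeding, and the other groups received 5, 10, 20 or 30% less, here called 5% CR, 10% CR, 20% CR and 30% CR. After a fast of 16 h, RNA of the small intestine was taken, the RNA of 5 rats was pooled for each group, and each pool was measured on 1 Affymetrix rat 230A array. There is therefore no replicate of any level, the spread between rats within a group is unknown, and all 4 CR levels are compared with the same single control array. RNA of intestinal tissue and not of single cell types was measured, so fewer cells of a type and less RNA per cell cannot be told apart. The study does not state which part of the small intestine was sampled.

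Values are MAS5 intensities on a linear scale, which the authors scaled to a common mean, and a log2 ratio is log2 of the intensity on a CR array minus log2 of that on the control array. The tests and counts took the 7933 gene probes with a mean log2 intensity at or above the median, a limit equal to an intensity of 46.5, and all 13 gene probes of the set passed it. Correlations of log2 intensities between arrays ran from 0.971 to 0.988 over these gene probes. The ratio of the 3′ to the 5′ probe set of beta-actin, a sign of RNA quality, was 3.18 at 20% CR and from 2.20 to 2.41 on the other 4 arrays, and that of Gapdh ran from 1.21 to 1.40. Markers of the villus epithelium were present at high intensity, with all 12 measured markers above the limit, whereas albumin of the liver stayed between 11.6 and 26.0 and the ileal genes *Fabp6* and *Slc10a2* between 5.5 and 24.0, below the limit on every array. The 7 measured genes of the exocrine pancreas summed to 645.6 on the control array and to between 241.3 and 301.2 on the CR arrays, with *Ctrb1* at 74.0 on the control array and between 0.7 and 15.5 on the CR arrays. By their mean over the arrays, 6 of the 7 lay below the limit. On the control array alone, *Ctrb1*, *Prss1* (174.3), *Pnlip* (67.5) and *Amy2a3* (48.2) stood above it. *Prss1* read from 2.4 to 71.2 on the CR arrays. The gene kept, *Cela1*, read 214.5 on the control array and from 149.5 to 245.8 on the CR arrays. The part of these pancreatic genes in the differences from the control array was not tested.

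The stretches just before the transcription starts are shown for the 4 genes that had an unadjusted p below 0.05 in at least 1 of the tests described further on (*Sult1a1*, *Sult1b1*, *Ephx1* and *Akr1c14*). They are RefSeq sequence of the rat assembly GRCr8, 250 bases that end at the base before the start, written 5′ to 3′ on the strand of the gene. Capitals mark matches, on either strand, to 6 short motifs: TGACNNNGC (core of the antioxidant response element bound by NRF2), GCGTG (core of the xenobiotic response element), AGGTCA (half-site of nuclear receptors), TGTTCT (half-site of the glucocorticoid receptor), CACGTG (E box) and TTATGTAA (D box). The window of *Sult1a1* lies at chr1:190706113-190706362 on the minus strand, that of *Sult1b1* at chr14:20771667-20771916 on the plus strand and that of *Akr1c14* at chr17:71083185-71083434 on the minus strand. *Ephx1* has 2 starts in the table, on the minus strand, with windows at chr13:95275853-95276102 and chr13:95263118-95263367.
Sult1a1: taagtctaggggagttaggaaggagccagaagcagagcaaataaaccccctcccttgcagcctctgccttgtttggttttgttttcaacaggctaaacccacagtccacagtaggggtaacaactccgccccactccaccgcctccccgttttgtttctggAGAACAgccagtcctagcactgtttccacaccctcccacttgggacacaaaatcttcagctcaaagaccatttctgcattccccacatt
Sult1b1: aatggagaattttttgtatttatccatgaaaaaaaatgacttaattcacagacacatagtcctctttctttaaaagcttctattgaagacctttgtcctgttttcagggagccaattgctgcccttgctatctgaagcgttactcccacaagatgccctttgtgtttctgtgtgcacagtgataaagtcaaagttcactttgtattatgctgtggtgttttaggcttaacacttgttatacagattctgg
Ephx1, upstream start: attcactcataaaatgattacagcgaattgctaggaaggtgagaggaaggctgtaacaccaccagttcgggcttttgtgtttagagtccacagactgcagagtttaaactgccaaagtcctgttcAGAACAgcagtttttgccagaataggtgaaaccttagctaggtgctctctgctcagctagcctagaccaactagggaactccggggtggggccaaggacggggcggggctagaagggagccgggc
Ephx1, downstream start: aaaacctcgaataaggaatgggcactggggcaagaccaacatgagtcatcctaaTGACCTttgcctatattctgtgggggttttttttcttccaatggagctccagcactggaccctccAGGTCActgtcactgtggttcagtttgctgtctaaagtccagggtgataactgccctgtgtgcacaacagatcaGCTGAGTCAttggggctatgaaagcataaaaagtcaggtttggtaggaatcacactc
Akr1c14: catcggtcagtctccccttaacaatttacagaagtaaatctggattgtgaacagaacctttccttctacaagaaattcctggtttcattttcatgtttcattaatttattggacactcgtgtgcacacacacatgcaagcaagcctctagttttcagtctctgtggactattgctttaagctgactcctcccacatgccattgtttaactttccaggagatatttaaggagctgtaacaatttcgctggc

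The window of *Sult1a1* holds 1 match, to the glucocorticoid receptor half-site, from 89 to 84 bases before the start. The upstream start of *Ephx1* also has that half-site as its only match, from 125 to 120 bases before it. The downstream start has the antioxidant core from 57 to 49 bases before it and 2 nuclear receptor half-sites, from 196 to 191 and from 131 to 126 bases before it. The windows of *Sult1b1* and *Akr1c14* hold none of the letters searched, which says only that these letters are not in this window. Over the 10 windows of the 9 genes found (*Ephx2* has no entry), the antioxidant core was in 1, against 10.1% of 33469 rat windows of the same length, the xenobiotic core in 4 against 25.9%, the nuclear receptor half-site in 2 against 14.1%, the glucocorticoid receptor half-site in 4 against 17.5%, the E box in 1 against 5.59% and the D box in 0 against 0.828%. In *Por*, 1 match to GCGTG and 1 to AGGTCA share bases. A match to such short letters is a description, not a site.

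*Sult1a1* (gene probe 1370019_at) encodes the sulfotransferase of small phenols. Its intensity was 58.1 on the control array, 138.4 at 5% CR, 129.3 at 10% CR, 128.8 at 20% CR and 186.7 at 30% CR. The control array was the lowest, the arrays of the 3 milder levels lay close together, and the 30% CR array was the highest. The log2 ratios were 1.25, 1.15, 1.15 and 1.68, that is 2.38-fold, 2.23-fold, 2.22-fold and 3.21-fold the control. Their mean was 1.31 ± 0.24 (SE, 4 CR arrays against 1 control array, 95% confidence interval 0.78 to 1.84), or 2.48-fold, and 10 of the 7933 gene probes had a larger one. The limma adjusted p was 0.263. The control intensity is near the limit of 46.5, where ratios of MAS5 intensities vary more, and 1 control pool carries the difference. The slope of the linear trend was 0.40 ± 0.12 (SE) per 10% of restriction, with a limma adjusted p of 0.998. *Sult1a1*, *Ephx1* and *Akr1c14* are among the genes that the study named, with these arrays in its data, so their direction here is not independent evidence.

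*Sult1b1* (1387314_at), which acts on thyroid hormones and on small phenols, was brighter and differed less. Its intensity was 521.2 on the control array, 633.9 at 5% CR, 582.8 at 10% CR, 797.9 at 20% CR and 820.4 at 30% CR. The control array was again the lowest, and the 2 stronger levels stood above the 2 milder ones. The mean log2 ratio was 0.43 ± 0.20 (SE, 95% confidence interval −0.01 to 0.87, limma adjusted p = 0.988). The slope was 0.22 ± 0.06 (SE) per 10% of restriction, again with a limma adjusted p of 0.998.

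*Sult2b1* encodes a sulfotransferase of cholesterol and other sterols. Its brighter gene probe (1376248_at) read 399.5 on the control array, then 411.6, 377.8, 483.9 and 330.8 at 5, 10, 20 and 30% CR, so that the control array lay in the middle of the CR arrays. The other gene probe (1393474_at) read 160.1 on the control array, then 166.7, 140.8, 231.8 and 195.2. The gene probes had mean log2 ratios of −0.01 ± 0.20 and 0.17 ± 0.25 (SE). They disagreed most at 30% CR, by 0.56, where 1 lay below the control and the other above it, and their signs matched at 3 of 4 levels.

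**Figure D1:**
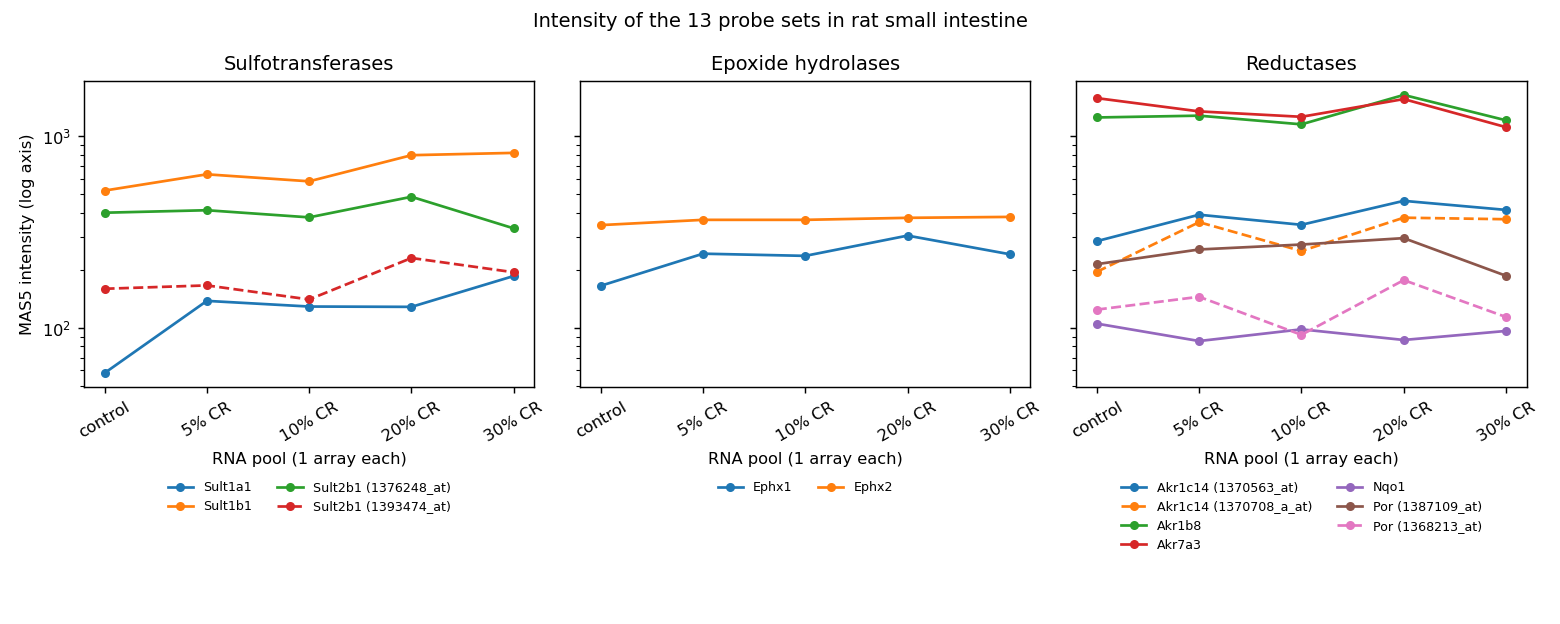
MAS5 intensity (log axis) of each gene probe for the control pool and the 4 CR pools in order of restriction, evenly spaced, 1 point for each pool of 5 rats, with a dashed line for the dimmer gene probe of a gene with 2. The control point of Sult1a1 lies at 58.1 and its CR points between 128.8 and 186.7, while the points of Ephx2 run from 344.2 to 379.9. Heights are not to be compared between gene probes.

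Of the epoxide hydrolases, *Ephx1* (1387669_a_at) encodes the microsomal enzyme, which opens epoxides of foreign compounds. Its intensity was 165.9 on the control array, 244.1 at 5% CR, 237.8 at 10% CR, 303.4 at 20% CR and 242.4 at 30% CR. All 4 CR arrays stood above the control array, the 20% CR array highest, and the other 3 CR arrays lay within 237.8 and 244.1. The log2 ratios were 0.56, 0.52, 0.87 and 0.55, with a mean of 0.62 ± 0.18 (SE, 95% confidence interval 0.22 to 1.03), or 1.54-fold, and a limma adjusted p of 0.861. The slope was 0.16 ± 0.09 (SE) per 10% of restriction, and the ratios at 5 and 30% CR were alike.

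*Ephx2* (1369663_at) encodes the soluble enzyme, which acts on epoxides of fatty acids. Its intensity was 344.2 on the control array, then 366.7, 366.7, 375.7 and 379.9 at 5, 10, 20 and 30% CR. The values spanned a narrow range, with the control array lowest and a mean log2 ratio of 0.11 ± 0.14 (SE, 95% confidence interval −0.19 to 0.42, limma adjusted p = 0.988). The difference between the ratios of the 2 epoxide hydrolases was not tested.

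Among the aldo-keto reductases, *Akr1c14* encodes a 3-alpha-hydroxysteroid dehydrogenase, which also reduces carbonyl groups of foreign compounds. Its brighter gene probe (1370563_at) read 283.8 on the control array, 390.0 at 5% CR, 345.5 at 10% CR, 460.8 at 20% CR and 413.2 at 30% CR. The other gene probe (1370708_a_at) read 196.2 on the control array, then 356.6, 252.1, 376.3 and 369.4. On both, the control array was lowest, the 10% CR array the lowest of the CR arrays and the 20% CR array the highest. The mean log2 ratios were 0.50 ± 0.17 (SE, 95% confidence interval 0.11 to 0.88, limma adjusted p = 0.974) and 0.77 ± 0.22 (SE, 0.28 to 1.26, limma adjusted p = 0.849). The signs of the gene probes matched at all 4 levels, and their ratios differed most at 5% CR, by 0.40. The slopes were 0.17 ± 0.07 and 0.24 ± 0.09 (SE) per 10% of restriction.

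*Akr1b8* (1370902_at) belongs to the aldose reductase family. It read 1255.7 without restriction, then 1283.3, 1156.2, 1646.5 and 1213.3 at 5, 10, 20 and 30% CR. Only the 20% CR array stood apart, and the mean log2 ratio was 0.06 ± 0.19 (SE, 95% confidence interval −0.35 to 0.48).

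*Akr7a3* (1368121_at) encodes a reductase of the dialdehyde of aflatoxin. It read 1584.9 on the control array, then 1351.0, 1265.9, 1566.7 and 1117.5 at 5, 10, 20 and 30% CR. Here the control array was the highest, with 20% CR next to it and 30% CR lowest. The log2 ratios were −0.23, −0.32, −0.02 and −0.50, with a mean of −0.27 ± 0.18 (SE, 95% confidence interval −0.66 to 0.12, limma adjusted p = 0.988).

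*Nqo1* (1387599_a_at), the quinone reductase and a classical target of NRF2, read 105.3 on the control array, followed by 85.4, 98.3, 86.5 and 96.4 at 5, 10, 20 and 30% CR. The control array was the highest and the CR arrays had no order by level. The mean log2 ratio was −0.20 ± 0.20 (SE, 95% confidence interval −0.65 to 0.25, limma adjusted p = 0.988).

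*Por*, the reductase that passes electrons from NADPH to the microsomal P450 enzymes, read 215.2 in the control pool with the brighter gene probe (1387109_at), and 256.8, 272.5, 294.3 and 187.1 in the pools at 5, 10, 20 and 30% CR. The other gene probe (1368213_at) read 124.6 on the control array and 145.4, 92.0, 177.7 and 114.0. Both had the 20% CR array highest and the 30% CR array below the control array. They went apart by 0.78 (log2) at 10% CR, where the first lay above the control and the second below it. The mean log2 ratios were 0.21 ± 0.23 and 0.04 ± 0.31 (SE), and the first was 0.13 without 20% CR and 0.35 without 30% CR.

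**Figure D2:**
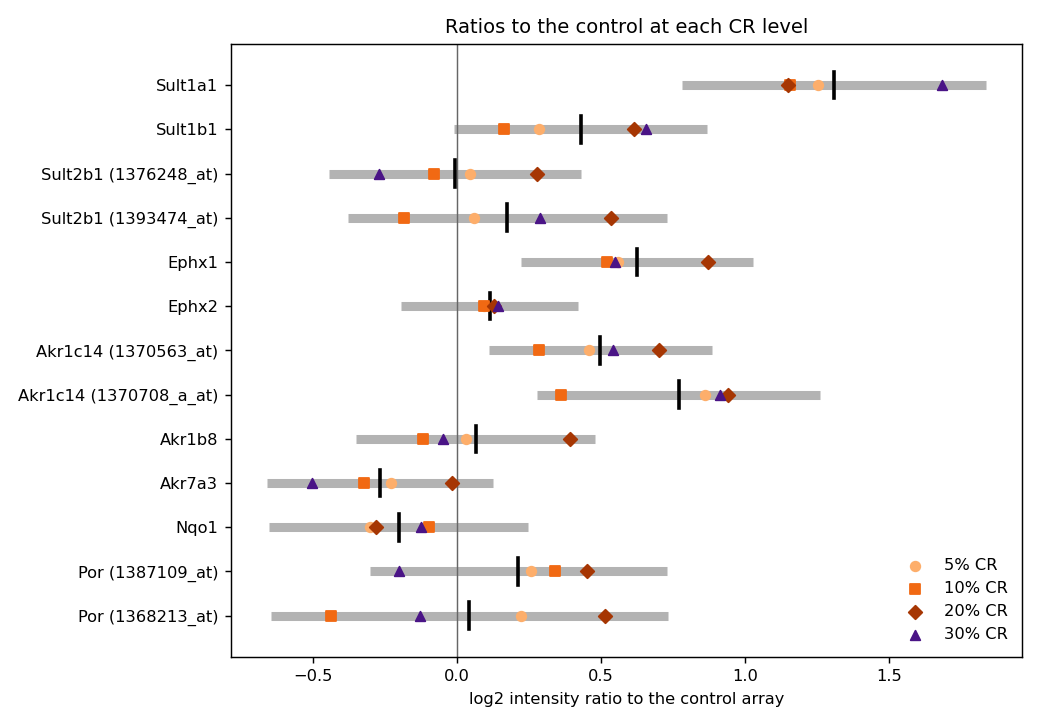
Log2 ratio to the control array for each gene probe, with a symbol for each CR level, a black tick at their mean and a grey bar for the 95% confidence interval of that mean from the limma fit. The mean of Sult1a1 is 1.31 with an interval of 0.78 to 1.84, and the means of Nqo1 and Akr7a3 are −0.20 and −0.27 with intervals that hold 0.

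Over the whole table, the limma comparison of the 4 CR arrays with the control array called 0 gene probes at an adjusted p below 0.05 (0% of 7933), and the trend likewise 0 (0%). The smallest adjusted p over all gene probes was 0.0778 for the comparison and 0.998 for the trend. At an unadjusted p below 0.05, 4 of the 13 gene probes of the set were higher under CR (*Sult1a1*, *Ephx1* and both of *Akr1c14*), against 2.71% of all gene probes, and 0 were lower, against 2.05%. In the trend, 4 of 13 had a rising slope at that level (*Sult1a1*, *Sult1b1* and both of *Akr1c14*), against 1.55%, and 0 a falling one, against 1.54%. These counts depended on the arrays and the setting: the trend count was 1 without the control array, 2 with no intensity trend in the prior and 0 with centring on the villus markers (described further on), and the count of 4 higher under CR was 1 with that centring. Such centring takes 0.66 off every gene probe of the 20% CR array and so alters the spread among the CR arrays. The mean log2 ratio was then 1.19 for *Sult1a1* and 0.50 for *Ephx1*, against 1.31 and 0.62 without it. Its lower counts thus do not measure the size of the ratios alone. The 2 gene probes of *Akr1c14* measure 1 gene and are not independent. *Sult1a1*, *Ephx1* and *Akr1c14* were named by the study with these arrays in its data, and the set was chosen with earlier results known. Counts above the share of all gene probes, here and by size below, are therefore a description and not independent evidence.

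By size, the gene probes of *Sult1a1* and *Ephx1* were past a log2 ratio of 0.5 at every level, 2 of 13 against 0.769% of all gene probes. None of the 13 was lower by that size at all 4 levels, against 0.34%. The mean log2 ratio was positive for 10 of 13 (7 of 10 genes by the brightest gene probe), against 49.1%, with a median of 0.17 over the 13 and −0.0057 over all gene probes. *Sult1a1* alone reached a log2 ratio of 1, at every level, against 0.366, 0.454, 0.504 and 0.744% of all gene probes at 5, 10, 20 and 30% CR. None of the 13 was lower by that size, against 0.214, 0.214, 0.63 and 0.34%.

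**Figure D3:**
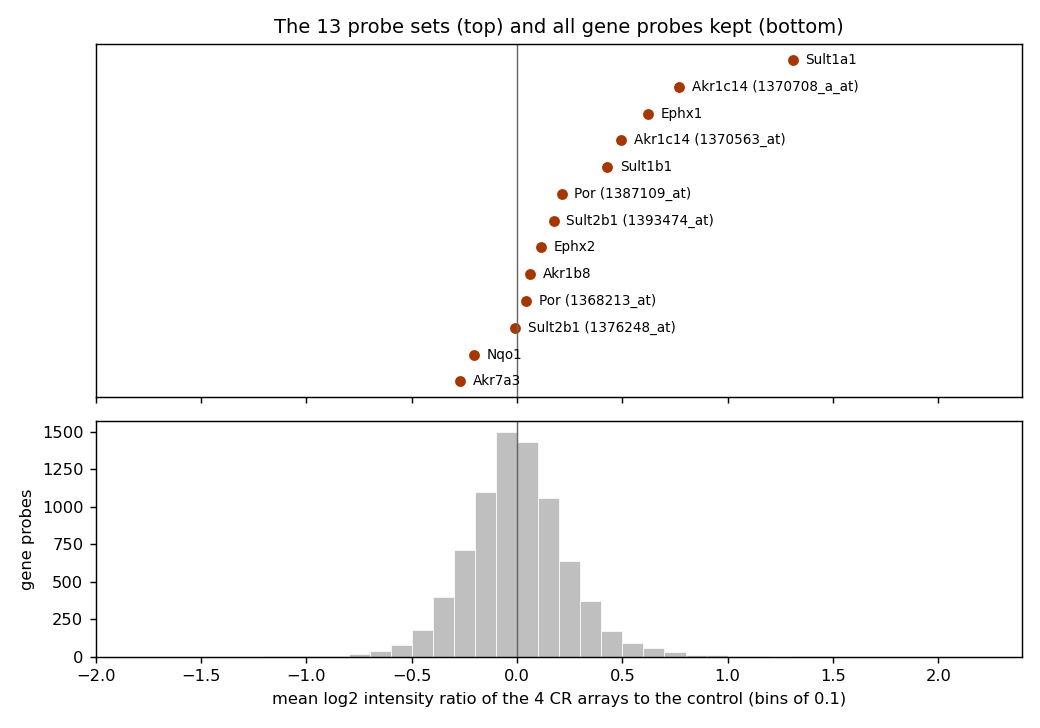
Mean log2 ratio of the 4 CR arrays to the control array, as points for the 13 gene probes of the set in the upper panel and as the number of gene probes in bins of 0.1 for all 7933 in the lower panel. Of the 7933, 10 lie above Sult1a1 at 1.31 and 127 above Ephx1 at 0.62.

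The 20% CR array differed from its neighbours for much of the set. It was the highest of the 5 arrays for 8 of the 13 gene probes, against 21.2% of all gene probes, and the lowest for 0, against 28.8%, whereas 30% CR was the highest for 3 (*Sult1a1*, *Sult1b1* and *Ephx2*), against 22.6%. The 8 include both gene probes of *Sult2b1*, *Akr1c14* and *Por*. By the brightest gene probe of each gene, 20% CR was the highest for 5 of 10. At a log2 ratio of 0.5 or more, 3, 2, 7 and 5 of 13 were higher at 5, 10, 20 and 30% CR, against 5.62, 4.73, 3.95 and 7.51%. By the brightest gene probe these were 2, 2, 4 and 4 of 10. At the same size 0, 0, 0 and 1 were lower, the last being *Akr7a3*, against 3.84, 3.45, 6.15 and 5.61%. The median log2 ratio of the 13 gene probes was 0.22, 0.09, 0.51 and 0.14 in the order of the levels.

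Markers of the villus epithelium were highest on the same array. The 12 measured markers summed to an intensity of 24487 at 20% CR and to between 16106 and 17945 on the other 4 arrays, with none at 0, and their median log2 ratios were −0.06, −0.12, 0.66 and 0.01. The markers did not move together. Their mean log2 ratio was positive for 7 and negative for 5 of 12, from 1.03 for *Fabp2* to −0.31 for *Alpi*. *Fabp2* had log2 ratios of 0.96, 0.88, 1.28 and 1.00, and *Alpi* had −0.23, −0.59, 0.19 and −0.62. Markers of crypt and dividing cells had medians of 0.20, 0.08, 0.06 and 0.28, those of smooth muscle −0.31, 0.15, −0.16 and −0.28, and those of immune cells 0.17, 0.63, −0.08 and 0.16. The beta-actin ratio of 3.18 belongs to this array as well. The part of the markers or of that ratio in the 20% CR values was not tested. With the villus markers as the reference in place of the array mean, a setting chosen after the data were seen, 20% CR was highest for 0 of the 13, against 0.126% of all gene probes. At 20% CR, 0 of the 13 were then higher by 0.5 or more, against 0.378%, and 3 were lower by that size, against 76%. Higher at all 4 levels, by any size, were 4 of the 13, against 1.65%. *Sult1a1* then had log2 ratios of 1.31, 1.28, 0.49 and 1.68, and *Ephx1* had 0.62, 0.64, 0.21 and 0.54, while the median of all gene probes at 20% CR moved to −0.69. This setting takes the same amount off every gene probe of an array, so it leaves the distances between gene probes as they were. With 0.66 taken off the 20% CR array, hardly any gene probe could be highest there or higher by 0.5. Those counts of 0 therefore say nothing about the set or about its cells.

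**Figure D4:**
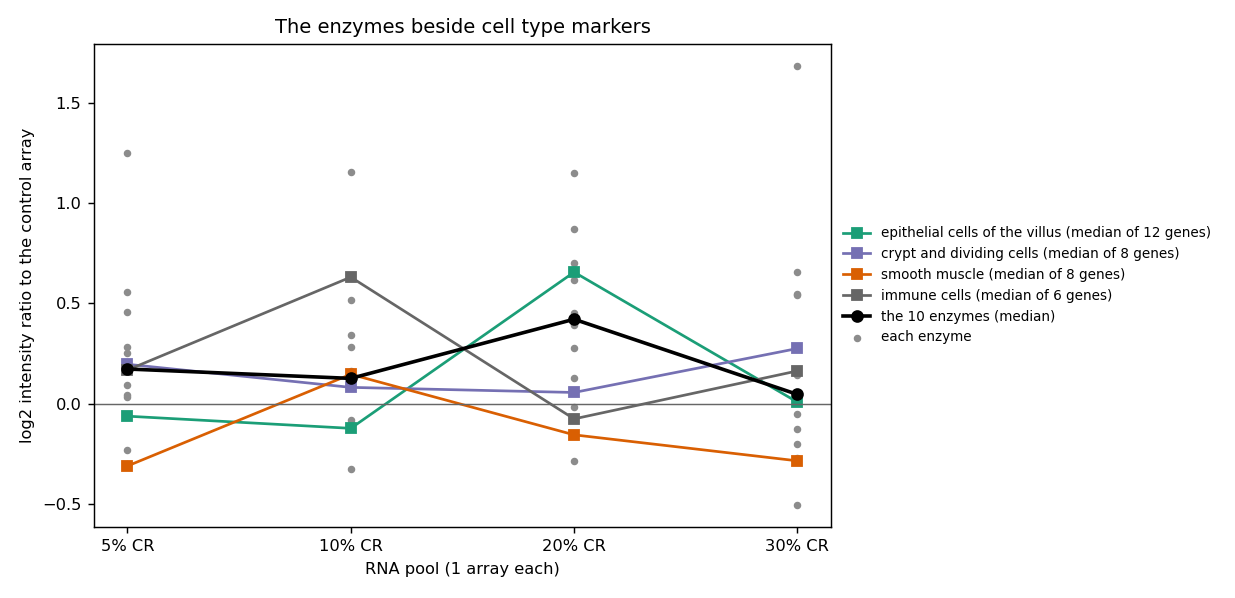
Log2 ratio of intensity to the control array at each CR level: grey points for the brightest gene probe of each of the 10 enzymes, black circles for their median, and coloured squares for the medians of markers of the villus, of crypt and dividing cells, of smooth muscle and of immune cells. At 20% CR the median of the enzymes was 0.42, that of the villus markers 0.66 and those of the other 3 lists between −0.16 and 0.06.

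The rest of these pathways was read from lists with 1 gene probe a gene, the brightest, and in each list 0 genes were called in either direction by either limma test. Of 13 other sulfotransferases on the array, 3 were above the limit, all with a negative mean log2 ratio near 0, such as *Tpst2*, a protein-tyrosine sulfotransferase, at −0.10. The mean of *Sult1c2a*, −0.02, came from log2 ratios of 0.44, −0.49, −0.48 and 0.45 at 5, 10, 20 and 30% CR. The other 10 of the 13 lay below the limit. The list of sulfate donor supply and sulfate removal had 10 of 13 genes above the limit, with 6 positive and 4 negative and a median of 0.07. *Slc13a1*, the sulfate transporter, had 0.28, and *Bpnt2*, a phosphatase of the spent donor, −0.29. *Papss2*, which makes the sulfate donor, read 3806.7 on the control array and 3801.0, 3590.5, 5176.6 and 4029.2 on the CR arrays, again with 20% CR apart.

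Other aldo-keto and carbonyl reductases were positive for 10 and negative for 5 of 15 (median 0.03), with *Hsd11b2*, which inactivates corticosterone, at 0.67 and *Dcxr*, a reductase of sugars and dicarbonyls, at −0.38. *Hsd11b2* read 41.1 on the control array and 41.0 at 20% CR, both below the limit, and 85.3, 88.8 and 59.1 at 5, 10 and 30% CR. Quinone and flavin reductases and the cytochrome b5 system were positive for 6 and negative for 4 of 10 (median 0.07), with *Nqo2* at 0.28. Other epoxide hydrolases and epoxide-forming enzymes were positive for 2 and negative for 1 of 3 (median 0.10), with *Cyp2j3*, a fatty acid epoxygenase, at 0.34. Of the glucuronidation list, only *Ugp2* at 0.21 and *Ugdh* at −0.15, which make the sugar donor, were above the limit. The median over all gene probes was −0.0057.

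Other target genes of NRF2, the factor that also acts on *Nqo1* and *Ephx1*, had 5 positive and 8 negative of 13 and a median of −0.12. *Hmox1*, which breaks down heme, had a mean log2 ratio of −0.94, *Gstm1* −0.56 and *Gsta1* 0.78, the latter both glutathione transferases. Target genes of the receptors CAR and PXR had 4 positive and 1 negative of 5 (median 0.05), with the P450 enzymes *Cyp3a18* at 1.00 and *Cyp3a9* at 0.84. Of 17 listed targets, 10 had a gene probe with 1 name, and 5 of these lay below the limit. *Cyp2b1* and *Cyp2b2* are not among the 10. The study gives them a shared gene probe, which is among its top up-regulated ones of the intestine, so the median leaves them out. Among sensors and regulators 4 were positive and 3 negative of 7 (median 0.02), with *Nr3c1*, the glucocorticoid receptor, at 0.56 and *Dbp*, a clock factor that binds the D box, at 2.20. *Cebpb* was at −0.47 and lower than the control at all 4 levels. The other 10 of 17 on the array lay below the limit, among them *Ahr* and *Nr1i3*, the gene of CAR. *Dbp* read 21.9 on the control array, below the limit, and from 48.6 to 158.1 on the CR arrays, so its ratio rests on a dim control value. *Nfe2l2*, which encodes NRF2, read 739.8 on the control array and 938.7, 638.4, 774.4 and 878.3 on the CR arrays, on both sides of the control.

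The named gene probes with the log2 ratios most like those of the genes of the set were found over the 4 levels among 6899 gene probes with 1 gene name, by the root mean square difference. For *Sult1a1* they were *Vars1* at 0.17, *Lrrc58* at 0.22 and *Per2* at 0.28, and the ratios of *Vars1* were 1.50, 1.26, 1.33 and 1.77. For *Ephx1* they were *Slc5a6* at 0.07, *Zcchc10* at 0.08 and *Pmp22* at 0.10. For the brighter gene probe of *Akr1c14* they were *Rnf213* at 0.07, *Nherf1* at 0.07 and *Cyp27a1* at 0.08. With 4 values that share 1 control array, such likeness is a description.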

How the data were processed

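Small-intestine RNA of 5 groups of rats was hybridised to Affymetrix rat 230A arrays, 1 pool of 5 rats per array. The deposited values are MAS5 intensities on a linear scale, scaled before deposit (the mean without the lowest and highest 2% is 132 on each array). MAS5 is the tool in the submitters' processing notes, which give no target for the scaling. MAS5 takes mismatch signal off, so ratios of dim gene probes vary widely. Detection and change calls of the authors were not used here. A floor of 0.1 was set, log2 was taken, the 57 array controls were dropped, and gene probes at or above the median mean log2 intensity (5.54) were kept. Symbols came from the GEO platform annotation, with 12783 gene probes carrying 1 symbol, 312 several and 2771 none, and 0 needed updating.

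The tests used limma 3.58.1 under R 4.3.3, once for CR against control and once for a line over the percent of restriction. The moderated fit (lmFit, eBayes) let the prior follow intensity, p-values were two-sided, and the Benjamini-Hochberg adjustment ran over 7933 gene probes, with 3 residual degrees of freedom. Differences between CR levels count as residual spread, and the spread of the 1 control pool is taken to be that of the CR pools. The fit was tested on simulated data. With 1 pool a group, p-values measure only the spread between these arrays. The number of arrays limits the precision.

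The genes and lists were chosen with earlier results of these data known. All 10 genes are named. From each list, the 3 kept genes with the largest absolute mean log2 ratio could be named, and *Papss2* and *Nfe2l2* were added after their values were seen. Alternatives were another added constant, normalization or filter, other sizes, the mean of gene probes, and leaving out each array.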

Additional observations from a re-analysis of the deposited data

How the results depend on the processing

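No paired analysis was possible because each diet had its own rats and 1 pool. By the limma tests, 0 gene probes of the set were called under every alternative run. Over all gene probes the count was 0 as well, except for 3 higher under CR when 30% CR was left out. The number of gene probes of the set past a log2 ratio of 0.5 in 1 direction at all 4 levels was 2. It was 1 with an added constant, 1 with median centring, 1 with the stricter filter (which drops *Sult1a1*), 4 at a size of 0.25, 1 at a size of 1 and 0 with centring on the villus markers, and from 2 to 3 when an array was left out, where *Akr1c14* joins without 10% CR. The count of ratios past 1 at single levels, 4, was 0 with the stricter filter and 18 at a size of 0.5. The mean log2 ratio of *Akr1b8* turned to −0.056 with villus centring and −0.046 without 20% CR (−0.046 to 0.124 when a CR array was left out), and that of *Ephx2* to −0.0069 with villus centring. That of *Sult2b1* turned to 0.0090 with quantile normalization, 0.016 without 10% CR, 0.080 without 30% CR and 0.082 with the mean of its gene probes (−0.103 to 0.080 when a CR array was left out). The cause of these turns was not tested. The mean of *Por* ran from 0.13 to 0.35 when a CR array was left out and was 0.09 with villus centring. At an unadjusted p below 0.05, the 4 gene probes of the set in the comparison with the control were from 3 to 5 under the other settings but 1 with villus centring. The 4 in the trend were 1 without the control array, 2 with no intensity trend in the prior, 0 with villus centring and from 3 to 5 otherwise. Villus centring alters the spread among the CR arrays, so its lower counts do not measure the size of the ratios alone. Leaving the villus centring aside, the mean log2 ratio ran from 1.14 to 1.36 for *Sult1a1*, from 0.54 to 0.66 for *Ephx1* and from 0.43 to 0.63 for *Akr1c14*. Over all gene probes, those higher or lower by 0.5 at all 4 levels were 61 and 27, but 38 and 19 with an added constant, 693 and 443 with no filter, 16 and 6 with the stricter filter, 104 and 60 without 10% CR, 117 and 45 without 20% CR, and 24 and 27 with villus centring. The control intensity of *Sult1a1* is the dimmest of the set.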
